A study of Mus musculus with 6 samples.

Results

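Ginsenoside Rh2 (Rh2), a triterpenoid saponin of ginseng, was given at 20 mg/kg together with doxorubicin (Dox) to tumour-bearing mice, and heart RNA of these mice was compared with heart RNA of vehicle-treated Control mice. The comparison used 2 of the 6 libraries of the series, Control and Rh2-20 + Dox, each made from RNA of 5 pooled hearts. Genes with a mean of at least 10 reads over the 6 libraries were kept, which left 18328 of 45777 listed genes. The other 4 libraries, here named Rh2-20, Rh2-30, Rh2-30 + Dox and Dox after the daily dose of Rh2 in mg/kg and the presence of Dox, are quoted only to show where the combination differed from them.

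All mice were 6-week-old female BALB/c nude mice, strain CAnN.Cg-Foxn1nu/Crl, which lack a thymus and have few mature T cells. Control mice also carried a subcutaneous xenograft of MDA-MB-231, a human triple-negative breast cancer line, so no library came from a tumour-free or immunocompetent heart. Treatment began at day 7 after the tumour cells and lasted 3 weeks. Control mice received vehicle, described as saline. Rh2 was dissolved in PBS with Tween 80. Dox was given at 2 mg/kg every other day to a cumulative 22 mg/kg, and Rh2 was given daily. Whether the pooled hearts held the same share of atrium, great vessel and blood is not stated. The ventricular markers were abundant in every library, with a summed level between 16530 and 24590 CPM (counts scaled to a common library size), as a heart sample should show.

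Dox is an anthracycline that poisons DNA topoisomerase II, causes DNA double-strand breaks and arrests dividing cells, and its clinical use is limited by injury to the heart. Cardiac muscle cells of adult mice rarely divide, so the messenger RNAs of the mitotic machinery in heart come largely from endothelial, stromal and immune cells. Rh2 has been described as an anti-oxidative and anti-inflammatory compound.

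Control had 86755312 assigned reads and Rh2-20 + Dox had 89742232, within the range of 86164411 to 90621002 over the 6 libraries. Ratios are log2 values of Rh2-20 + Dox over Control after trimmed-mean (TMM) scaling, with a prior count of 0.5. Each is given with a 95% counting interval in brackets, taken from an exact binomial (Clopper-Pearson) interval on the split of the reads. A gene was called higher or lower when it differed at least 2-fold and its counting interval did not include 0. With 1 library a condition there was no replicate check and no test. The intervals cover counting error only, since they rest on 1 read count a side. The reads carry no molecular identifiers, so duplicate reads could make the intervals too narrow.

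Most cardiac transcripts had nearly the same level in both libraries: 14974 genes (81.7%) lay within 1.5-fold. At the 2-fold threshold 878 genes were higher (4.79% of those tested) and 618 were lower (3.37%), and the median over all genes was 0.01. These shares are the background for every list count against Control given below. The higher genes included messages of atrial muscle, platelets and neutrophils and a cluster of Oas1 antiviral genes. The lower genes included much of the mitotic machinery. Control was the lowest of the 6 libraries in 579 of the 878 higher genes, and Rh2-20 + Dox was the highest in 330. Among the 618 lower genes, Control was the highest library in 285 and Rh2-20 + Dox the lowest in 278. The genes were called from these same 2 libraries, which favours such ranks, so the counts are a description only. On the log2(FPKM + 1) scale, where FPKM is a count scaled by gene length and library depth, the same 2-fold limit gave 137 higher and 46 lower genes, which is a larger share of higher genes.

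**Figure D1:**
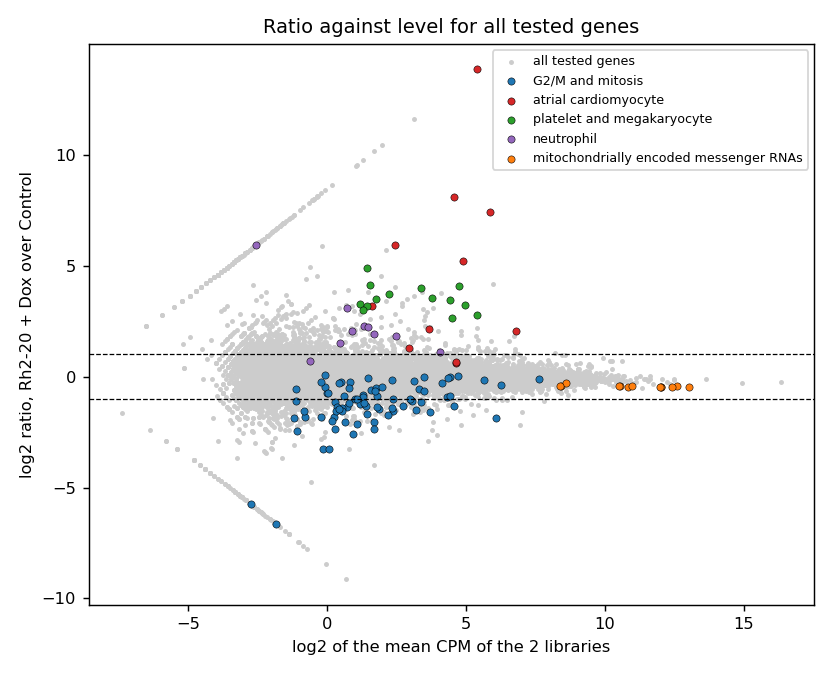
Each point is 1 of the 18328 tested genes, with the log2 of its mean CPM in Control and Rh2-20 + Dox on the horizontal axis and its log2 ratio on the vertical axis. Colours mark gene lists, dashed lines mark 2-fold, and the slanted rows hold genes at 0 in 1 of the libraries, whose ratio depends on the prior count. The median of all genes lies at 0.01, and 878 genes lie past the 2-fold line above it and 618 past the line below.

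The mitotic genes had the lowest median of the 32 pathway lists. Of 80 tested genes of G2 phase and mitosis, 43 were at least 2-fold lower in Rh2-20 + Dox, none was higher, and 77 lay below 0. The median of the list was -1.12, against 0.01 for all genes and a background of 3.37% of genes lower. The proximal promoters of the list members with the 3 largest falls among those with at least 100 reads are shown first, followed by those of Cdk1, Top2a and Espl1, which hold both elements often found together in cell cycle promoters. Each is the stretch of 120 bases before an annotated RefSeq start of the gene (GRCm38.p6), read 5′ to 3′ on the strand of the gene. Capitals mark CCAAT or its reverse complement ATTGG, and the cell cycle homology element (CHR) TTTGAA or its reverse complement TTCAAA.
Nek2: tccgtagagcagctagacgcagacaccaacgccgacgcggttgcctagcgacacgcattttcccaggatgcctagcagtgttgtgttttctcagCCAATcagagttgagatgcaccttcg
Troap: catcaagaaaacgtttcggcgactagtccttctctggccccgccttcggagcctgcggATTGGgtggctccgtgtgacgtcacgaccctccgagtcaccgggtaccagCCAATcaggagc
Bub1: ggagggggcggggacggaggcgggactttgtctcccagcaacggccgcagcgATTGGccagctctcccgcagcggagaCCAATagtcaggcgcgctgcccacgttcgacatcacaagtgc
Cdk1: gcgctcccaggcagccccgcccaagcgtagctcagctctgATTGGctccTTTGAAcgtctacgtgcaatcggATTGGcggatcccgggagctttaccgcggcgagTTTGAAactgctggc
Top2a: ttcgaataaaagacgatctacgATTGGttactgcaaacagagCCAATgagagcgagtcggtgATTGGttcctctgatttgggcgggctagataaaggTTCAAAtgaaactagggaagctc
Espl1: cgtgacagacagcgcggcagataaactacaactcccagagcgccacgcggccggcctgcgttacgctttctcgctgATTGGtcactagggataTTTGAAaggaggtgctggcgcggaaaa
These lie at chr1:191821353-191821472 (plus strand) for Nek2, chr15:99074853-99074972 (plus) for Troap, chr2:127831860-127831979 (minus) for Bub1, chr10:69352913-69353032 (minus) for Cdk1, chr11:99024190-99024309 (minus) for Top2a and chr15:102296173-102296292 (plus) for Espl1.

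RefSeq promoters of 300 bases, from 250 bases before to 50 after the start, were matched for 68 of the 80 mitotic genes, with 75 promoters in all. CCAAT was present on either strand in 77.3% of these promoters, against 37.4% of all 32851 mouse promoters of the same length. The CHR was present in 64.0% of them (37.3% in the 250 bases before the start alone) against 17.9%, and both elements in 53.3% against 6.95%. In the 38 promoters of the mitotic genes that fell, the shares were 78.9% and 73.7%. The strings can share at most 1 end base. A match is a description of the sequence only, and the Nek2, Troap and Bub1 stretches above hold CCAAT without a CHR.

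Nek2, a centrosome kinase that separates the spindle poles, had 136 reads in Control and 15 in Rh2-20 + Dox, beside 155 in Rh2-20, 151 in Rh2-30, 14 in Rh2-30 + Dox and 20 in Dox. It fell 9.67-fold (log2 ratio -3.27 [-4.20, -2.55]). The 3 libraries with Dox were low and the 3 without it were high, and the groups did not overlap. The share of all tested genes that split the libraries by Dox was not counted, here or for the genes below. Troap, a spindle-associated protein, had 160, 158 and 138 reads in Control, Rh2-20 and Rh2-30, and 18, 18 and 44 in Rh2-20 + Dox, Rh2-30 + Dox and Dox. Its ratio to Control was -3.25 [-4.08, -2.58]. Bub1, a kinase of the spindle checkpoint, had 275 reads in Control, 50 in Rh2-20 + Dox and 95 in Dox, and its ratio was -2.59 [-3.06, -2.16].

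The same split by Dox was seen in genes with far more reads. Mki67, the Ki-67 proliferation antigen (chromosome 7, 135689784 to 135716450), had 8783 reads in Control, 10708 in Rh2-20, 13001 in Rh2-30, 2664 in Rh2-20 + Dox, 677 in Rh2-30 + Dox and 3822 in Dox. It was 3.63-fold lower in Rh2-20 + Dox than in Control. Top2a, the topoisomerase II isoform of dividing cells and a target of Dox, had 1646 reads in Control, 596 in Rh2-20 + Dox, 117 in Rh2-30 + Dox and 794 in Dox. The ratio of Top2a was -1.60 [-1.74, -1.47], whereas Top2b, the isoform of non-dividing cells, had 28805 and 26574 reads and a ratio of -0.25. For Top2a and Mki67 the lowest library was Rh2-30 + Dox, not the combination with 20 mg/kg.

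Members of each mitotic step were among the 43. Cdk1, the kinase that drives entry into mitosis, had 155 reads in Control and 48 in Rh2-20 + Dox (-1.82 [-2.33, -1.35]), and its partner Ccnb1 had 140 and 70 (-1.13 [-1.57, -0.71]). The chromosomal passenger genes Aurkb and Cdca8 went from 150 to 41 and from 67 to 13 reads, with ratios of -1.99 and -2.46. Kinetochore and checkpoint genes Ttk, Bub1b, Cenpf and Cenpe fell as well, with ratios of -2.03, -1.67, -1.32 and -1.51. Espl1, the protease separase that parts sister chromatids, had 423 and 180 reads and a ratio of -1.37. Cep55 and Neil3, outside the list but among the largest falls, encode a protein of the final abscission of daughter cells and a DNA glycosylase of S phase, and had ratios of -2.72 and -2.52.

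Cdc25c, the phosphatase that activates Cdk1, had 47, 88 and 58 reads in Control, Rh2-20 and Rh2-30, and 0 in each library with Dox. Against a floor of 3 reads per library it was at least 17.2-fold lower in Rh2-20 + Dox. Cenpm, a centromere protein, had 25 reads in Control and 0 in the combination, at least 9.17-fold lower. Plk1 and Ccnb2 were below Control (ratios of -0.83 and -0.88) without reaching 2-fold. Ckap5, which also serves microtubules of non-dividing cells, had 17317 and 17536 reads and a ratio of -0.12. In bulk RNA, fewer dividing cells and less mitotic RNA per cell cannot be told apart.

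Against Dox alone the mitotic list was close but not level. In that comparison 491 of all genes were higher (2.68%) and 574 lower (3.13%), and among the 80 mitotic genes 7 were lower and none higher, with a median of -0.23. The 7 were Cdca8, Dlgap5, Troap, Aurkb, Kif18b, Bub1 and Bub1b, of which Cdca8 was the lowest at -1.87. Against Rh2-20, where 672 genes were higher (3.67%) and 490 lower (2.67%), 49 of the 80 mitotic genes were lower and the median was -1.23. The medians over Control were 0.14 in Rh2-20 and -0.86 in Dox, and all these comparisons with Control share the one Control library.

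**Figure D2:**
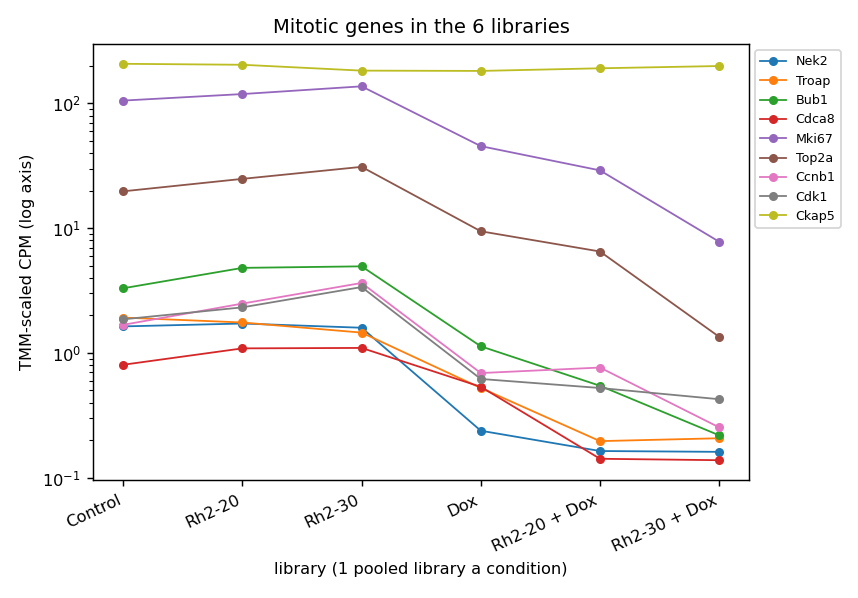
The TMM-scaled CPM of 9 mitotic genes is drawn on a log axis for the 6 libraries, 1 line a gene and 1 pooled library a condition. Mki67 is highest in Rh2-30 (13001 reads) and lowest in Rh2-30 + Dox (677 reads), and in all genes drawn but Ckap5, which is level, the libraries with Dox lie below those without it.

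Genes of DNA replication lay mostly below Control, with a smaller share called than in the mitotic list. Of 43 tested S-phase genes 6 were lower and none higher, against a background of 3.37% of all genes lower. The median was -0.39 and 35 lay below 0. Dtl, an adaptor of the ubiquitin ligase that degrades replication licensing factors, had 252 reads in Control and 81 in Rh2-20 + Dox (-1.77 [-2.16, -1.41]). Clspn, E2f1, Uhrf1 and Chaf1a were also among the 6, at -1.36, -1.25, -1.24 and -1.06. Pcna, the replication clamp, had 4106 and 4826 reads and a ratio of 0.10, and Mcm2, of the replicative helicase, had a ratio of -0.17. These differences sat beside the mitotic ones within the same 2 libraries.

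Cdkn1a, which encodes the CDK inhibitor p21 and is the best known transcriptional target of p53 (chromosome 17, 29090979 to 29100722), had more reads in every treated library than in Control. It had 230 reads in Control, 431 in Rh2-20, 559 in Rh2-30, 681 in Rh2-20 + Dox, 753 in Rh2-30 + Dox and 368 in Dox. It rose 2.69-fold in the combination (1.43 [1.21, 1.65]) and stood above both single agents, with ratios of 0.76 [0.58, 0.95] to Dox and 0.63 [0.46, 0.81] to Rh2-20, neither past 2-fold. Cdkn2a, which encodes the inhibitor p16, went the other way, with 19 reads in Control and 0 in the combination, at least 6.97-fold lower.

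The wider p53 list did not follow Cdkn1a as a group. Of 36 tested p53 targets 3 were higher and 1 lower, against 4.79% and 3.37% of all genes, with a median of 0.19. Gdf15, a stress cytokine, had 37 reads in Control, 96 in Rh2-20 + Dox and 36 in Dox, a ratio of 1.23 [0.68, 1.83]. Mdm2, the ubiquitin ligase of p53, had 7838 and 7312 reads and a ratio of -0.24, and the apoptosis gene Bax had a ratio of 0.19. Of 26 apoptosis genes only Bid was called, with 26 and 68 reads (1.24 [0.58, 1.96]), and Xiap, an inhibitor of caspases, was at 0.01. Igfbp3, a secreted binding protein of insulin-like growth factors, had 490 reads in Control, 1758 in Rh2-20 + Dox and 1299 in Dox, and its ratio was 1.71 [1.56, 1.85]. Of 21 tested topoisomerase and Dox-handling genes Top2a was the only one called, and the Dox efflux pump Abcb1a was at -0.15.

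**Figure D3:**
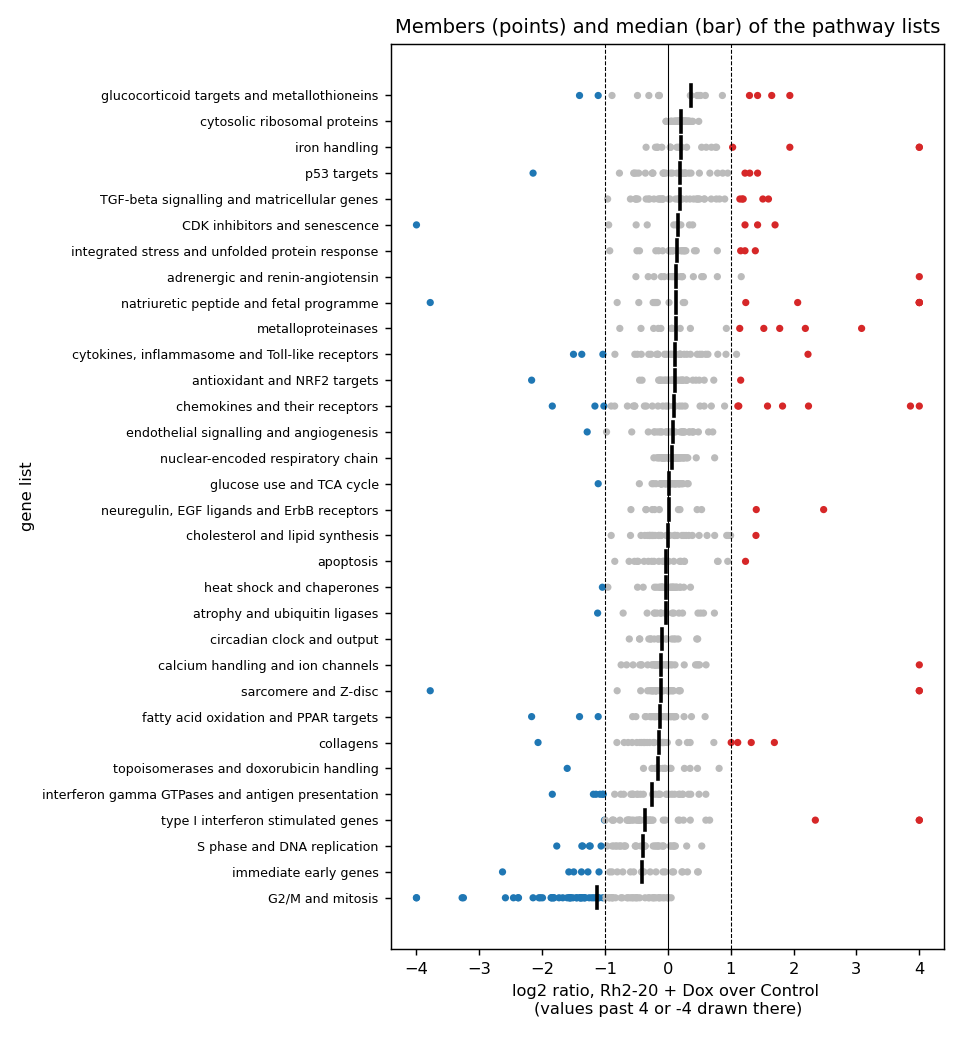
Each point is a member of a pathway list, placed by its log2 ratio of Rh2-20 + Dox over Control, and the bar is the list median. Blue and red points are genes called lower and higher, dashed lines mark 2-fold, and values past 4 or -4 are drawn there. The G2 phase and mitosis list has the lowest median, at -1.12, and most other lists are centred near 0.

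Ventricular contractile genes had nearly the same level in both libraries. None of the 11 ventricular markers was called, and their median was -0.18. Myh6, the main myosin heavy chain of the adult mouse ventricle, had 1111142 reads in Control and 1133554 in Rh2-20 + Dox (-0.11). Myh7, the slow isoform that is raised in cardiac stress, had 201564 and 224478 reads (0.02), and Atp2a2, the calcium pump of the sarcoplasmic reticulum, was at -0.11. Nppb, the B-type natriuretic peptide used as a marker of wall stress, had 3661 and 3422 reads (-0.23). Acta1, skeletal actin, had 42807 and 26915 reads (-0.81), and similar counts of 27443 and 27279 in Rh2-30 + Dox and Dox, without reaching 2-fold. Of 40 sarcomere genes only Myl7, Myl4 and the low-count Tnni1 were called.

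Myl7 and Myl4 belong to the atrium, and the atrial list was the largest shift among heart muscle genes. Of 11 atrial markers 9 were higher and all lay above 0, with a median of 3.20. The summed level of the list was 94.7 CPM in Control, 125 in Rh2-20, 2034 in Rh2-30, 595 in Rh2-20 + Dox, 132 in Rh2-30 + Dox and 496 in Dox. Rh2-30 was thus far above the combination, and the amount of atrium in each pool was not recorded, so its part in these values was not tested.

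Bmp10, a growth factor made by right atrial muscle (chromosome 6, 87428994 to 87434512), had 0 reads in Control, 4 in Rh2-20, 534 in Rh2-30, 7644 in Rh2-20 + Dox, 6 in Rh2-30 + Dox and 217 in Dox. It was at least 2316-fold higher in the combination than in Control, and was the atrial gene that stood furthest above Dox, at 5.01 [4.82, 5.22]. Unlike the rest of the list, Bmp10 was highest in the combination library.

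The other atrial genes followed a common order. Sln, sarcolipin, an inhibitor of the calcium pump, had 14 reads in Control, 326 in Rh2-20, 15768 in Rh2-30, 4393 in Rh2-20 + Dox, 0 in Rh2-30 + Dox and 1828 in Dox. Myl7, the atrial regulatory light chain, had 56, 1187, 52896, 10613, 19 and 9134 reads in the same order. Nppa, the atrial natriuretic peptide, had 3607, 3252, 56331, 16608, 6416 and 16217. In all 3 the highest library was Rh2-30 and the next were Rh2-20 + Dox and Dox. Their ratios to Control were 8.11 [7.41, 9.03] for Sln, 7.42 [7.05, 7.83] for Myl7 and 2.06 [2.01, 2.12] for Nppa. Against Dox the ratios were 1.14 [1.06, 1.22], 0.09 [0.05, 0.13] and -0.09 [-0.12, -0.06], and the list median was 0.06.

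Hamp, hepcidin, the peptide hormone that limits iron export and is also made in heart, had 13 reads in Control, 42 in Rh2-20, 1388 in Rh2-30, 783 in Rh2-20 + Dox, 7 in Rh2-30 + Dox and 88 in Dox. It was called higher than Control (5.72 [4.99, 6.69]) and than Dox (3.02 [2.71, 3.36]). Its library order resembled that of the atrial genes. Of 22 tested iron genes 4 were higher and none lower, against 4.79% and 3.37% of all genes, with a median of 0.21.

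**Figure D4:**
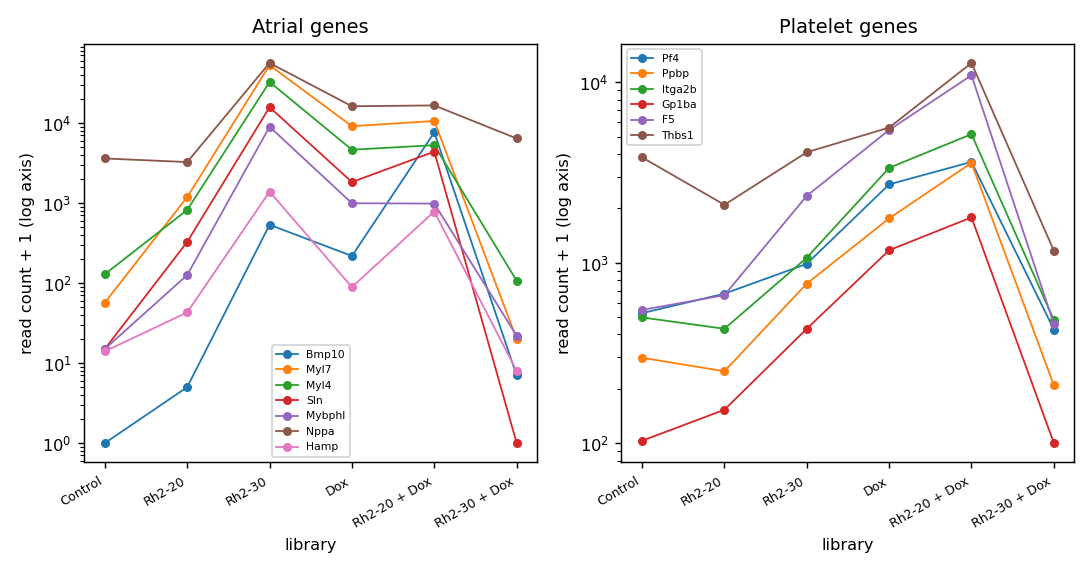
Read counts plus 1 of atrial genes with Hamp, and of platelet genes with F5 and Thbs1, are drawn on log axes for the 6 libraries, 1 line a gene. Atrial genes peak in Rh2-30, apart from Bmp10 at 7644 reads in Rh2-20 + Dox, and platelet genes peak in Rh2-20 + Dox and Dox.

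Platelet messages gave the most complete rise of any list. All 14 platelet and megakaryocyte markers were called higher, with a median of 3.47, and their summed level was 36.1 CPM in Control, 34.5 in Rh2-20, 71.9 in Rh2-30, 344 in Rh2-20 + Dox, 30.1 in Rh2-30 + Dox and 223 in Dox. Pf4, platelet factor 4, had 524 reads in Control, 672 in Rh2-20, 984 in Rh2-30, 3616 in Rh2-20 + Dox, 425 in Rh2-30 + Dox and 2714 in Dox. Itga2b, the alpha chain of the platelet fibrinogen receptor, had 496, 429, 1064, 5153, 479 and 3352 reads in the same order. Both were high in Rh2-20 + Dox and Dox, but not in the other library with Dox. The ratios were 2.65 [2.52, 2.78] for Pf4 and 3.24 [3.11, 3.38] for Itga2b. Ppbp, the precursor of a platelet chemokine, went from 296 to 3571 reads (3.45 [3.28, 3.63]).

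Against Dox none of the 14 was called, and the median was 0.54. Against Rh2-20 all 14 were higher, with a median of 3.71. F5, coagulation factor V, which mouse megakaryocytes make, was outside the list and had 546 reads in Control, 10927 in Rh2-20 + Dox and 5438 in Dox (4.18 [4.06, 4.31]). Thbs1, thrombospondin 1, a product of platelets as well as of stromal cells, had 3832 reads in Control, 12783 in Rh2-20 + Dox, 1163 in Rh2-30 + Dox and 5605 in Dox. It rose 3.03-fold over Control and was 1.06 [1.02, 1.11] above Dox. RefSeq promoters were found for 12 of the list, and AGATAA, a form of the GATA site, was in 41.7% of them on either strand, against 11.2% of all promoters. In the 250 bases before the start alone it was in 3 of the 12.

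The globin transcripts had more reads than in Control but did not reach 2-fold. Hba-a1, alpha globin, had 99346 reads in Control, 178496 in Rh2-20 + Dox and 273474 in Dox (0.71 [0.70, 0.72]), and the summed red cell level went from 3860 to 6137 CPM. Of 11 tested red cell genes 2 were called, 7 lay above 0 and 4 below, with a median of 0.57 and the lowest, the transferrin receptor Tfrc, at -0.35. Hba-a1 and its neighbour Hba-a2 are near-identical copies, so reads may be split between them. The summed red cell level was 2762 CPM in Rh2-20, 3485 in Rh2-30, 1795 in Rh2-30 + Dox and 10800 in Dox. The red cell and platelet sums were both highest in Dox and Rh2-20 + Dox and lowest in Rh2-30 + Dox. Of the highest libraries, Dox had more globin and the combination more platelet RNA.

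Neutrophil genes had the highest median over Dox of the lists examined. Of 10 tested neutrophil markers 9 were higher than Control, with a median of 2.01, and 7 were also higher than Dox, with a median of 1.30. S100a9, a subunit of the calprotectin of neutrophil granules, had 204 reads in Control, 622 in Rh2-20, 287 in Rh2-30, 810 in Rh2-20 + Dox, 411 in Rh2-30 + Dox and 173 in Dox. Its partner S100a8 had 72, 166, 111, 387, 90 and 88 reads in the same order. Mmp8, neutrophil collagenase, had 29, 98, 51, 274, 167 and 42. For all 3 the combination was the highest of the 6 libraries and Dox was near Control. The ratios to Control were 1.85 [1.63, 2.08], 2.28 [1.92, 2.67] and 3.08 [2.55, 3.71], and the last 2, S100a8 and Mmp8, were 2.01 [1.67, 2.36] and 2.57 [2.11, 3.09] above Dox.

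Cxcr2, the chemokine receptor that draws neutrophils into tissue, had 81 reads in Control, 422 in Rh2-20 + Dox and 179 in Dox (2.24 [1.90, 2.60]). Il1r2, the decoy receptor for interleukin-1, was outside the neutrophil list and had 26 reads in Control, 136 in Rh2-20 + Dox and 21 in Dox, a ratio to Dox of 2.54 [1.90, 3.31]. Elane, Mpo, Camp and Ly6g, which mark immature or mature neutrophils, were below the count filter. The summed level was 18.6 CPM in Control, 35.1 in Rh2-20, 55.5 in Rh2-20 + Dox and 21.8 in Dox. Blood left in the hearts was not measured, and its part in the platelet, red cell and neutrophil values was not tested.

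Markers of other cells were mixed. Fibroblast, endothelial and smooth muscle lists had no called member, with medians of 0.30, 0.08 and 0.09. Of 10 endocardial and lymphatic markers 5 were higher, led by Mmrn1, a multimerin of lymphatic endothelium and platelets, with 1514 and 5885 reads (1.82). Of 11 tested white fat markers 6 were higher, with a median of 2.02, but against Dox 4 were lower and the median was -0.70. Their summed level was 2308 CPM in Control and 2185 in the combination, since Fabp4 and Lpl, which other heart cells also express, had ratios of -0.03 and -0.14. Adipoq, adiponectin, had 56 reads in Control, 330 in Rh2-20, 3716 in Rh2-30, 317 in Rh2-20 + Dox, 8 in Rh2-30 + Dox and 650 in Dox. Adipoq was highest in Rh2-30 and lowest in Rh2-30 + Dox, and the combination was level with Rh2-20. T and NK cell genes had a summed level of 2.90 CPM in Control and 7.04 in the combination, of which Tigit alone took 0 and 4.23 CPM, and 7 of the 18 were at 3 or fewer reads in the latter. The 12 liver markers, of which 5 were tested, summed to 11.8 CPM in Control, 44.5 in the combination and 164 in Rh2-30. Kit and Cpa3 of the 7 tested mast cell genes were lower, with 1894 and 768 reads (-1.44) and 317 and 155 reads (-1.17).

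**Figure D5:**
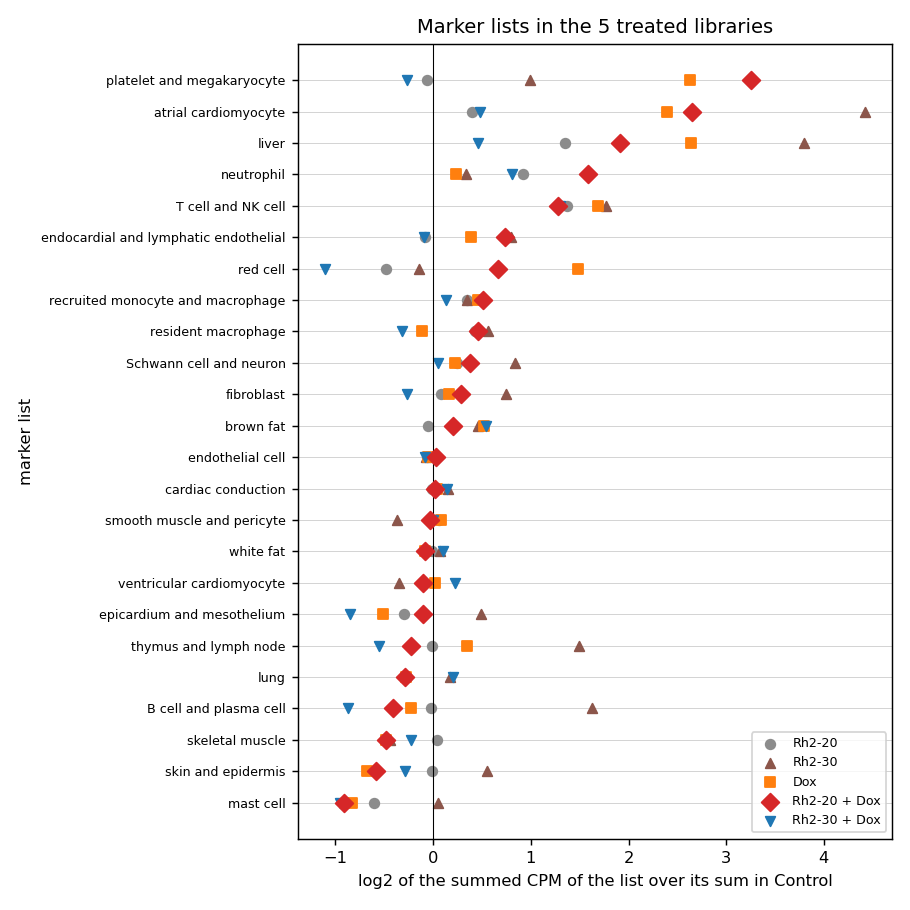
For each marker list of a cell type or tissue, the log2 of the summed CPM in each of the 5 treated libraries over the sum in Control is drawn. The platelet and atrial lists lie far above 0 in Rh2-20 + Dox, at 344 against 36.1 CPM and at 595 against 94.7 CPM, and the ventricular list lies near 0.

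Oas1 genes were the clearest case of an interferon gene family that differed from Control, and their promoters are shown for the interferon element they share. The 120 bases before the RefSeq start of Oas1a (chr5:120907526-120907645, minus strand) and Oas1g (chr5:120887614-120887733, minus strand) of GRCm38.p6 are printed with the element in capitals, which is GAAA, 2 bases of any kind and GAAA again, and occurs here in overlapping copies.
Oas1a: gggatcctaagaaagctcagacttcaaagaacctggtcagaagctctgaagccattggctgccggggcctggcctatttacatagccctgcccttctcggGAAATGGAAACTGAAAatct
Oas1g: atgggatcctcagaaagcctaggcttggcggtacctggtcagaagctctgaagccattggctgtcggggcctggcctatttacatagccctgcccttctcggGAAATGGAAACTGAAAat
This element was found on either strand in 51.5% of the 33 promoters matched to tested type I interferon-stimulated genes and in 3.44% of all 32851.

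Oas1a, an enzyme that makes the 2-5A activator of RNase L, had 0 reads in Control, Rh2-20 and Rh2-30, and 732 in Rh2-20 + Dox, 447 in Rh2-30 + Dox and 850 in Dox. It was at least 222-fold higher in the combination than in Control. Oas1g had 0 reads in the same 3 libraries without Dox and 375, 234 and 382 in the libraries with it, at least 114-fold higher. Both genes thus had reads only in the libraries with Dox, a split whose share over all genes was not counted. Moap1 and Slc10a3, described below, also went between 0 and more than 100 reads, without following Dox. Oas1b had 136 reads in Control and 763 in Rh2-20 + Dox (2.35 [2.09, 2.63]). The Oas1 genes of chromosome 5 are close copies, and the counting could move reads between them.

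The rest of the type I interferon list did not rise with Oas1. Of 40 tested genes 3 were higher, these being the Oas1 genes, 1 was lower and 31 lay below 0, with a median of -0.36. Mx2, an antiviral GTPase, had 3031 reads in Control and 1657 in Rh2-20 + Dox (-1.01 [-1.10, -0.92]).

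Interferon gamma genes had the lowest median over Dox of the lists examined. The median of the 35 tested genes was -0.25 against Control, with 6 lower and none higher, but -1.67 against Dox, with 26 lower and none higher. Their median in Dox over Control was 0.95, and in Rh2-20 over Control it was -0.23. Igtp, an immunity-related GTPase, had 1449 reads in Control, 1473 in Rh2-20, 1875 in Rh2-30, 2246 in Rh2-20 + Dox, 1507 in Rh2-30 + Dox and 12340 in Dox. Gbp4, a guanylate-binding protein of the same response, had 31011, 21322, 19516, 23278, 18446 and 106283 reads in the same order. Dox alone was high in both genes, and the combination lay among the other 5 libraries or little above them. The ratios to Dox were -2.58 [-2.65, -2.52] for Igtp and -2.32 [-2.34, -2.29] for Gbp4, whereas those to Control were 0.49 and -0.55.

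The 6 genes lower than Control were Cxcl9 and 5 genes of MHC class II presentation. H2-Aa, a class II alpha chain, had 260 reads in Control, 239 in Rh2-20, 526 in Rh2-30, 135 in Rh2-20 + Dox, 131 in Rh2-30 + Dox and 467 in Dox (-1.08 [-1.39, -0.78]). Cd74, the invariant chain, had 1925 reads in Control, 1038 in Rh2-20 + Dox and 3021 in Dox (-1.03 [-1.14, -0.92]). Ciita, the class II transactivator, had 354, 171 and 599 reads in the same libraries (-1.18 [-1.46, -0.92]), and H2-Eb1 was at -1.14. Both libraries that combined Rh2 with Dox were below Control, and Dox alone was above it. The class I gene H2-D1 was at 0.33. Cxcl9, a chemokine induced by interferon gamma, had 37 reads in Control, 11 in the combination and 61 in Dox (-1.84 [-3.01, -0.89]).

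Most genes of cytokines and their sensors were not called. Of 35 tested genes of cytokines, the inflammasome and Toll-like receptors 1 was higher, 3 were lower and 31 were neither. Over all tested genes 4.79% were higher and 3.37% lower. Tnf, tumour necrosis factor, had 91 reads in Control, 50 in Rh2-20, 35 in Rh2-20 + Dox and 39 in Dox (-1.50 [-2.12, -0.94]). Il6 had 34 and 18 reads (-1.03 [-1.97, -0.19]), and Tlr11, a sensor of microbial profilin, had 36 and 15 (-1.37 [-2.38, -0.50]). Ratios of Tlr1, Tlr2, Tlr5, Tlr6, Tlr7 and Tlr8 lay between 0.07 and 0.92, none past 2-fold. Of 34 chemokine and receptor genes 7 were higher and 3 lower, against the same shares of all genes. Cxcl13, a B cell chemokine, had 2 reads in Control, 4 in Rh2-20, 238 in Rh2-30, 160 in Rh2-20 + Dox, 22 in Rh2-30 + Dox and 50 in Dox, a ratio of 5.88 [4.31, 9.24] that rests on the 2 reads of Control.

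Among matrix genes some proteinases and matricellular proteins were higher while the main fibrillar collagens were near level. Of 16 tested metalloproteinases 5 were higher and none lower, against 4.79% and 3.37% of all genes. Their median was 0.13 and 5 lay below 0. Mmp3, stromelysin 1, had 395 reads in Control, 539 in Rh2-20, 900 in Rh2-30, 1492 in Rh2-20 + Dox, 510 in Rh2-30 + Dox and 696 in Dox (1.78 [1.62, 1.94]). Mmp27, Mmp9 and Mmp19 were at 2.19, 1.53 and 1.14, and the fifth was the neutrophil gene Mmp8. Mmp2 and Mmp14, the main gelatinase of heart stroma and its activator, were at 0.36 and 0.20. Timp4, the metalloproteinase inhibitor typical of heart, had 831 reads in Control, 2129 in Rh2-20, 1443 in Rh2-30, 2606 in Rh2-20 + Dox, 4904 in Rh2-30 + Dox and 1554 in Dox (1.51 [1.40, 1.63]). Control was the lowest library for Timp4. Timp1, Timp2 and Timp3 were at 0.59, 0.48 and 0.47.

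Of 42 genes of TGF-beta signalling and matricellular proteins 5 were higher and none lower, against 4.79% and 3.37% of all genes. Their median was 0.18 and 16 lay below 0. The 5 were Thbs1, Timp4, Lox, Comp and Fmod. Lox, which cross-links collagen, had 222 reads in Control, 561 in Rh2-20 + Dox and 415 in Dox (1.20 [0.97, 1.43]). Smad2 and Smad3, the signal transducers, were at -0.22 and 0.20. Of 30 collagens 4 were higher and 1 lower, with a median of -0.14, and the share lower was near that of all genes. Col1a1 and Col3a1, the main fibrillar collagens, were at -0.11 and -0.22. The 4 that were higher were the minor collagens Col8a2 (1.69), Col11a1 (1.33), Col6a5 (1.11) and Col23a1 (1.01), of which Col8a2 had only 14 and 51 reads.

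Fuel genes held a small set of large falls beside a level background. Ucp3, a mitochondrial carrier induced by fatty acids, had 3861 reads in Control, 3191 in Rh2-20, 4203 in Rh2-30, 945 in Rh2-20 + Dox, 1693 in Rh2-30 + Dox and 966 in Dox (-2.17 [-2.27, -2.06]). Pdk4, the kinase that turns off glucose oxidation, had 25379, 29573, 36110, 12940, 18419 and 10090 reads in the same order (-1.11 [-1.14, -1.08]). Angptl4, an inhibitor of lipoprotein lipase, had 449, 356, 922, 186, 134 and 211 (-1.41 [-1.66, -1.16]). All 3 are known targets of PPAR transcription factors, and in each the 3 libraries with Dox lay below the 3 without it. How many of all tested genes split in this way was not counted. These were the 3 called of 41 tested genes of fatty acid oxidation and PPAR targets, whose median was -0.12.

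Neither the nuclear-encoded respiratory chain (79 tested, none called, median 0.07) nor the genes of glucose use and the TCA cycle (50 tested, 1 lower, median 0.02) moved as a group. The messenger RNAs of the mitochondrial genome were all below Control, though none by 2-fold, with a median of -0.44 over 13. COX1, a subunit of cytochrome oxidase, had 814820 reads in Control, 666276 in Rh2-20, 529747 in Rh2-30, 648519 in Rh2-20 + Dox, 668324 in Rh2-30 + Dox and 801666 in Dox. The 4 libraries with Rh2 were lower than Control and Dox, and the medians of the 13 over Control were -0.41 in Rh2-20 and -0.04 in Dox. The share of all tested genes that split the libraries by Rh2 was not counted. This list was added after the values were seen. Scd1, stearoyl-CoA desaturase, had 1530 reads in Control, 4446 in Rh2-20 + Dox and 6023 in Dox (1.40 [1.32, 1.49]), but 40447 in Rh2-30.

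Immediate early genes, which are switched on within minutes of a stimulus and are sensitive to handling at death, were in part lower. Of 27 tested genes 6 were lower and none higher, against 3.37% and 4.79% of all genes. The median was -0.41, with 7 above 0, and the same medians were -0.58 in Dox and -0.31 in Rh2-20. Nr4a3, an orphan nuclear receptor, had 2232 reads in Control, 1111 in Rh2-20, 1416 in Rh2-30, 396 in Rh2-20 + Dox, 276 in Rh2-30 + Dox and 344 in Dox (-2.63 [-2.79, -2.48]). It was the largest fall of the list and split the libraries by Dox without overlap, a split whose share over all genes was not counted. Nr4a1, Egr3, Egr2, Egr1 and Fos were the other 5, with ratios between -1.58 and -1.10. The time from death to freezing was not given, and its part in these values was not tested.

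Stress programmes differed by list. Fkbp5, a chaperone induced by glucocorticoids, had 1730 reads in Control, 3171 in Rh2-20, 4889 in Rh2-30, 5981 in Rh2-20 + Dox, 9770 in Rh2-30 + Dox and 4333 in Dox (1.65 [1.57, 1.73]). Control was its lowest library. Of 19 tested glucocorticoid targets and metallothioneins 4 were higher and 2 lower, against 4.79% and 3.37% of all genes. Their median of 0.37 was the highest of the 32 pathway lists. In the other libraries the median over Control was 0.32 in Rh2-20, 0.33 in Rh2-30, 0.46 in Rh2-30 + Dox and -0.02 in Dox. Against Dox 3 were higher and none lower, with a median of 0.31. The 2 genes lower than Control were Pdk4 and Angptl4, which are also in the list of PPAR targets. Hspa1b, an inducible heat shock protein, had 8873 reads in Control, 2174 in Rh2-20, 8731 in Rh2-30, 4739 in Rh2-20 + Dox, 2081 in Rh2-30 + Dox and 8651 in Dox (-1.04 [-1.09, -0.99]). Of 27 integrated stress and unfolded protein genes 3 were higher, among them Sdf2l1, an endoplasmic reticulum chaperone partner, with 86 and 249 reads (1.39). Of 35 antioxidant and NRF2 target genes Slc7a11 was higher, with 14 and 35 reads, and Ucp3 lower. None of 21 circadian genes was called, with Per2 at 0.47.

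Receptors and growth factors gave single cases. Aplnr, the apelin receptor of endothelium, had 5100 reads in Control, 4251 in Rh2-20, 4935 in Rh2-30, 2303 in Rh2-20 + Dox, 1149 in Rh2-30 + Dox and 2031 in Dox (-1.28 [-1.36, -1.21]). It split the libraries by Dox in the way the PPAR targets did, with the same limit. Of 12 tested neuregulin, EGF ligand and ErbB genes Nrg2 (5 and 33 reads) and Tgfa (10 and 30 reads) were higher. Mstn, myostatin, which limits muscle growth, had 115 and 58 reads (-1.12). Adrb3, the beta-3 adrenergic receptor, had 0 reads in Control and 29 in the combination, at least 8.79-fold higher.

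Several of the largest ratios lay in genes listed at 0 in 1 or more libraries. Moap1, a partner of Bax, had 0 reads in Control, 241 in Rh2-20, 251 in Rh2-30, 595 in Rh2-20 + Dox, 0 in Rh2-30 + Dox and 106 in Dox. Tigit, an inhibitory receptor of T and NK cells, had 0 in Control and 388 in the combination, beside 258 to 533 in the other 4. Slc10a3, a predicted solute carrier, had 265 reads in Control, 0 in Rh2-20, 398 in Rh2-30, 0 in both combinations and 332 in Dox. Each was thus at 0 in 1 to 3 pools, Tigit in Control only, and above 100 reads in all others. Moap1 and Tigit were at least 180-fold and 118-fold higher than Control, and Slc10a3 was at least 97.2-fold lower. In all, 187 of the 878 higher genes were listed at 0 in Control, and 107 of the 618 lower genes at 0 in Rh2-20 + Dox.

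Some large falls did not split the libraries by Dox. Madd, a regulator of Rab GTPases, had 16795 reads in Control and between 3950 and 4635 in each treated library, so its ratio of -2.16 [-2.21, -2.11] set Control apart from all of them. Mnd1, a meiotic recombination factor, had 1815 reads in Control, 1968 in Dox, 270 in Rh2-20 + Dox and 160 to 436 in the other libraries with Rh2. The ratio of Mnd1 was -2.88 [-3.08, -2.70] to Control and -2.99 [-3.18, -2.81] to Dox, and the 4 libraries with Rh2 lay below both that had none. How many of all tested genes split by Rh2 in this way was not counted.

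The combination differed from every other library in few genes. It was at least 2-fold above each of the other 5 in 21 genes (0.115%) and at least 2-fold below each in 78 (0.426%). The same counts were 27 and 169 for Control, 6 and 104 for Rh2-20, 73 and 105 for Dox, 495 and 40 for Rh2-30 and 24 and 343 for Rh2-30 + Dox. Hmga2, a chromatin architectural protein, was among the 21, with 198 reads against 31 to 64 in the others (2.05 [1.58, 2.58]). Nr1h4, the bile acid receptor FXR, was among the 78, with 116 reads against 279 to 652 (-1.96 [-2.27, -1.66]).

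Of the 878 genes above Control, 208 were at least 2-fold above Dox as well and 342 above Rh2-20. Of the 618 below Control, 208 were also below Dox and 290 below Rh2-20. Over all tested genes, 2.68% were called higher than Dox and 3.67% higher than Rh2-20, and 3.13% and 2.67% were called lower. All these ratios share the Rh2-20 + Dox library, which favours overlap. Control, Dox and Rh2-20 each enter these counts as 1 library.

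By absolute level, the largest differences in CPM were in the most abundant transcripts. Ttn, titin, went from 90320 to 76880 CPM (-0.23) and COX1 from 9778 to 7075 CPM (-0.47). Cytosolic ribosomal protein genes were slightly above Control in 74 of 76 cases, with a median of 0.21 and none called.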

How the data were processed

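RNA of 5 pooled hearts a condition was extracted with RNeasy columns, made into libraries by SureSelect XT RNA Direct capture and sequenced on a HiSeq2500 by the authors. Per the labels, their processing notes list bcl2fastq 2.20.0, Trimmomatic, HISAT2 2.1.0 and StringTie 2.1.3b, with the mm10 build. The deposited table held a read count per gene, used here, and FPKM values scaled by the authors to gene length and library depth, used as an alternative. Deposited TPM values were not used. The capture baits can set which genes give reads.

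Genes with a mean count of at least 10 over the 6 libraries were kept. Counts were scaled by TMM (edgeR 4.0.16, R 4.3.3) and ratios were formed with a prior count of 0.5. Intervals were exact conditional binomial at 95% (scipy 1.17.1), with a floor of 3 counts for genes at 0. Ratios and intervals were tested on simulated data. With 1 library a condition no test was made. Sequences and positions came from RefSeq tables (GRCm38.p6).

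Members and the 32 pathway and 24 marker lists were chosen with earlier results of these data known. Genes were named when among the 10 largest ratios each way with at least 100 reads, among the 6 largest CPM differences each way, in a list, at 2-fold from all other libraries, or in the study's text. Predicted symbols were left out, and some genes that meet the rule are not reported here. Other genes shown as single cases were chosen after their values were seen. Alternatives covered scaling, filters, fold, prior, FPKM, interval and promoter window.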

Additional observations from a re-analysis of the deposited data

Results flagged for a closer look

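For 5 marker lists the effect of one agent went in opposite directions with and without the other, by a median of at least 0.2 on the log2 scale each way. With 1 library a condition these differences were not tested, and Control, Rh2-20 and Dox each enter 2 of the ratios.

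Epicardial and mesothelial genes had a median of -0.45 for Dox over Control but 1.41 for Rh2-20 + Dox over Rh2-20, and of -1.62 for Rh2-20 over Control but 0.31 for the combination over Dox. Upk3b, a mesothelial gene of this list, had 271 reads in Control, 102 in Rh2-20, 285 in Rh2-20 + Dox and 306 in Dox. It was low in Rh2-20 like the list. Unlike the list medians, its level in Dox was not below Control, and its level in the combination was not above Dox. The list median over Control was as low in Rh2-30 + Dox, at -1.59, as in Rh2-20. T and NK cell genes had a median of 1.21 for Dox over Control but -0.22 over Rh2-20, and of 0.31 for Rh2-20 over Control but -0.99 over Dox. These T and NK values rest on few reads, since the summed level lay between 2.90 and 9.87 CPM in the 6 libraries.

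Platelet genes had a median of -0.24 for Rh2-20 over Control and 0.54 for the combination over Dox. White fat genes had 1.67 and -0.70 for the same pair of ratios. Lung genes, of which 5 were tested, had -0.24 for Dox over Control and 0.65 for the combination over Rh2-20.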

How the results depend on the processing

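No paired analysis was possible for Rh2-20 + Dox against Control because each condition has 1 library. Pairing the libraries with and without Dox at each Rh2 dose would estimate another contrast and was not done. The 878 higher and 618 lower genes became 1425 and 1111 with no filter on low counts, 266 and 197 with a mean of at least 100 counts, 1575 and 1209 at a fold of 1.5, and 137 and 46 as log2(FPKM + 1). An interval widened by a Cox-Reid dispersion over the libraries, added after seeing the data, left 539 and 348. Fewer genes tested, a lower fold, a pseudocount that shrinks low genes and a wider interval are what these settings change. DESeq2 size factors (876 and 622), total counts (1010 and 526), a common dispersion (812 and 563) and a prior of 2 (847 and 601) stayed within 1.5 times, and the total count moved the median of all genes to 0.09. Chosen after seeing the data, leaving out the marker genes gave 838 and 618, and genes listed at 0, 691 and 511. The mean of Control and Rh2-20 in place of Control gave 608 and 535, with 505 and 434 shared. Signs were checked for the 187 named genes only, and none of those called at 2-fold changed sign. Of the list medians, 6 that lay within 0.06 of 0 changed sign, as did 5 uncalled named genes within 0.07 of 0, all as FPKM except the neuregulin list. Of 187 named genes, 80 fell under 2-fold as log2(FPKM + 1). In a window of 250 bases before the start, CHR was in 37.3% of mitotic promoters against 16% of all, CCAAT in 72.0% against 33.8%, and AGATAA in 3 of 12 platelet promoters against 9.99% of all. Without a second pool, no ratio could be set against animal-to-animal spread.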
